A study of Homo sapiens with 60 samples.

Results

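The metallothionein genes MT2A, MT1X, MT1E, MT1F and MT1G and the transcription factor gene MTF1 were followed through RNA sequencing of HT29 cells, a line from a human colorectal adenocarcinoma. The 6 genes were chosen by symbol out of 60675 rows of the gene table, and 16 further metallothionein genes and pseudogenes were looked up beside them. They were chosen because their levels with Cinnamomi Cortex at 500 µg/mL, set against vehicle, were already known, so those levels are given as a description with no p-value, and calls in contrasts of those Cinnamomi Cortex libraries are counted beside the share of all genes called with nothing read from them. The cells received hot water extracts for 24 h. Of the 7 extracts, Cinnamomi Cortex, Astragali Radix, Cnidii Rhizoma, Paeoniae Radix and Rehmanniae Radix Preparata came from single herbs, while Samul-tang and Sagunja-tang are mixtures of herbs, here called formulae. Each extract was given at 20, 100 and 500 µg/mL, with 3 libraries per dose, except Paeoniae Radix with 1 library per dose. The reference was vehicle, 3 libraries, with 0.1% DMSO in the sample labels and 2% in the series' design text. The design text also says that an extract with an IC20 under 500 µg/mL was given at its IC20 instead, while the sample labels give 500 throughout. All 60 libraries came from this 1 line.

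Metallothioneins are small cysteine-rich proteins that hold zinc and copper ions in clusters of thiolates. Their transcription is switched on by MTF1, a zinc finger protein that binds metal response elements in their promoters when free zinc rises, and MT2A also responds to glucocorticoids and to oxidative stress. In the gut epithelium they buffer zinc taken up from the lumen, together with the ZIP importers of the SLC39 family and the ZnT exporters of the SLC30 family.

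The metallothionein genes lie in 1 cluster on chromosome 16. There GENCODE release 29 (GRCh38) places 16 metallothionein genes and pseudogenes within 119.1 kb, from base 56565049 to base 56684196. MT2A spans 56608199 to 56609497, MT1E 56625475 to 56627112, MT1F 56657694 to 56660698 and MT1X 56682424 to 56684196, all on the plus strand. MT1G, at 56666731 to 56668065, is on the minus strand, and MTF1 lies on chromosome 1 at 37809567 to 37859620, minus strand. Promoters of MT2A and MT1X, a pair of members that were lower together with Cinnamomi Cortex, are shown with that of MT1H, a gene of the same cluster that was all but unread in these cells. They are the 250 bases before the RefSeq start (GRCh38.p14, plus strand), at chr16:56608334-56608583, chr16:56682220-56682469 and chr16:56669564-56669813. The MT2A window lies inside the longer GENCODE span of that gene. Capitals mark the core of the metal response element, TGCACNC or TGCGCNC, read on both strands.
MT2A: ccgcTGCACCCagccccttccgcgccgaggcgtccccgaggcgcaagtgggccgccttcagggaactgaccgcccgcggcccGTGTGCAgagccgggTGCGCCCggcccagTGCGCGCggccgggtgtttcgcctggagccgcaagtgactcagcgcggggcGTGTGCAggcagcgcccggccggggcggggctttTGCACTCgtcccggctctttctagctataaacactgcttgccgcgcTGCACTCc
MT1X: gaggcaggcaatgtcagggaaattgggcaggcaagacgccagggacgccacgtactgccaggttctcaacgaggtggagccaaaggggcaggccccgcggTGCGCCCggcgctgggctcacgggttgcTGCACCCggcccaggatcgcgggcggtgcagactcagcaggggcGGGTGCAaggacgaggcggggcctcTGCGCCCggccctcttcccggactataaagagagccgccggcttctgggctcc
MT1H: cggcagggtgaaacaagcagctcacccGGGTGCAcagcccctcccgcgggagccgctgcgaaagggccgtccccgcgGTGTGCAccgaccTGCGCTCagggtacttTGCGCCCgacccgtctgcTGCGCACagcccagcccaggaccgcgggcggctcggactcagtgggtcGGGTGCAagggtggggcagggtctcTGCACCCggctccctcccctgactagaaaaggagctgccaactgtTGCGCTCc

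The MT2A window holds 7 such cores, the MT1X window 4 and the MT1H window 8. Of 34796 RefSeq promoters of the same length, 24.8% hold at least 1 core and 0.368% hold 4 or more. The MTF1 window holds 0. A match says only that the letters are there.

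In all 60 libraries the deposited totals ran between 20459346 and 36253747 expected counts. The 10 colorectal epithelial markers looked up, EPCAM, CDX2 and KRT20 among them, were read in every library, and the defining genes of other cell types, PTPRC and CD3E of leukocytes, COL1A2 and DCN of fibroblasts, ALB and APOA2 of hepatocytes and CDH5 of endothelium, stayed at or near 0, as did PDGFRB and VWF. A further 5 markers on these lists were read in every library, SERPINA1 at 321 to 511 CPM, CD68 at 3.67 to 9.75, PECAM1 at 1.17 to 2.43, COL1A1 at 0.733 to 1.94 and TTR at 0.139 to 0.845, and their part in the results was not tested. Earlier results of these data divided the libraries into a first set of 27 (replicate 1 of Cinnamomi Cortex and of Astragali Radix, all of Rehmanniae Radix Preparata and Cnidii Rhizoma, and vehicle) and a second set of 30 (replicates 2 and 3 of Cinnamomi Cortex and Astragali Radix, and both formulae), with the 3 Paeoniae Radix libraries outside the fit. The sample titles mark all 60 libraries alike as BatchB, so the labels place both sets under 1 batch name. The sample codes run together within each set, but the labels do not say what the codes stand for. No label draws the line between replicate 1 and replicates 2 and 3 of Cinnamomi Cortex and Astragali Radix or calls the sets batches. The division was made with these expression values known, so that the first principal component, 22.6% of the variance, largely follows it is no independent evidence; replicate 2 of Cinnamomi Cortex at 500 stood with the first set.

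Levels are given in CPM, each gene's counts scaled to a common library total with TMM factors. Read per kilobase of transcript, MT1E was the most abundant metallothionein in vehicle at 128.9 CPM per kb, followed by MT2A at 54.55, MT1X at 6.989, MT1G at 1.403 and MT1F at 0.889. MTF1 stood at 5.352 CPM per kb in vehicle. The 5 metallothioneins summed to 138 ± 5.412 CPM in vehicle (SD, n = 3), of which MT1E made up 65.89%, MT2A 30.96% and MT1X 2.297%. MT1F and MT1G were close to the limit of detection, with 3 to 30 and 4 to 23 counts per library.

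With Cinnamomi Cortex at 500 µg/mL the summed metallothionein level was 32.34% of the vehicle level. It was 48.13, 47.85 and 37.91 CPM in the 3 Cinnamomi Cortex libraries, against 138.2, 132.5 and 143.3 CPM in the vehicle libraries. The groups lay far apart, and no other library of the series had a sum under 71.16 CPM. Each of the 4 genes MT2A, MT1E, MT1X and MT1F was lower in every Cinnamomi Cortex library than in every vehicle library. In this contrast the groups did not overlap for 26.2% of all genes, with 13.5% of all genes lower without overlap. The members were chosen on these libraries, so nothing is read from that lack of overlap. MT1G and MTF1 overlapped between the groups.

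**Figure D1:**
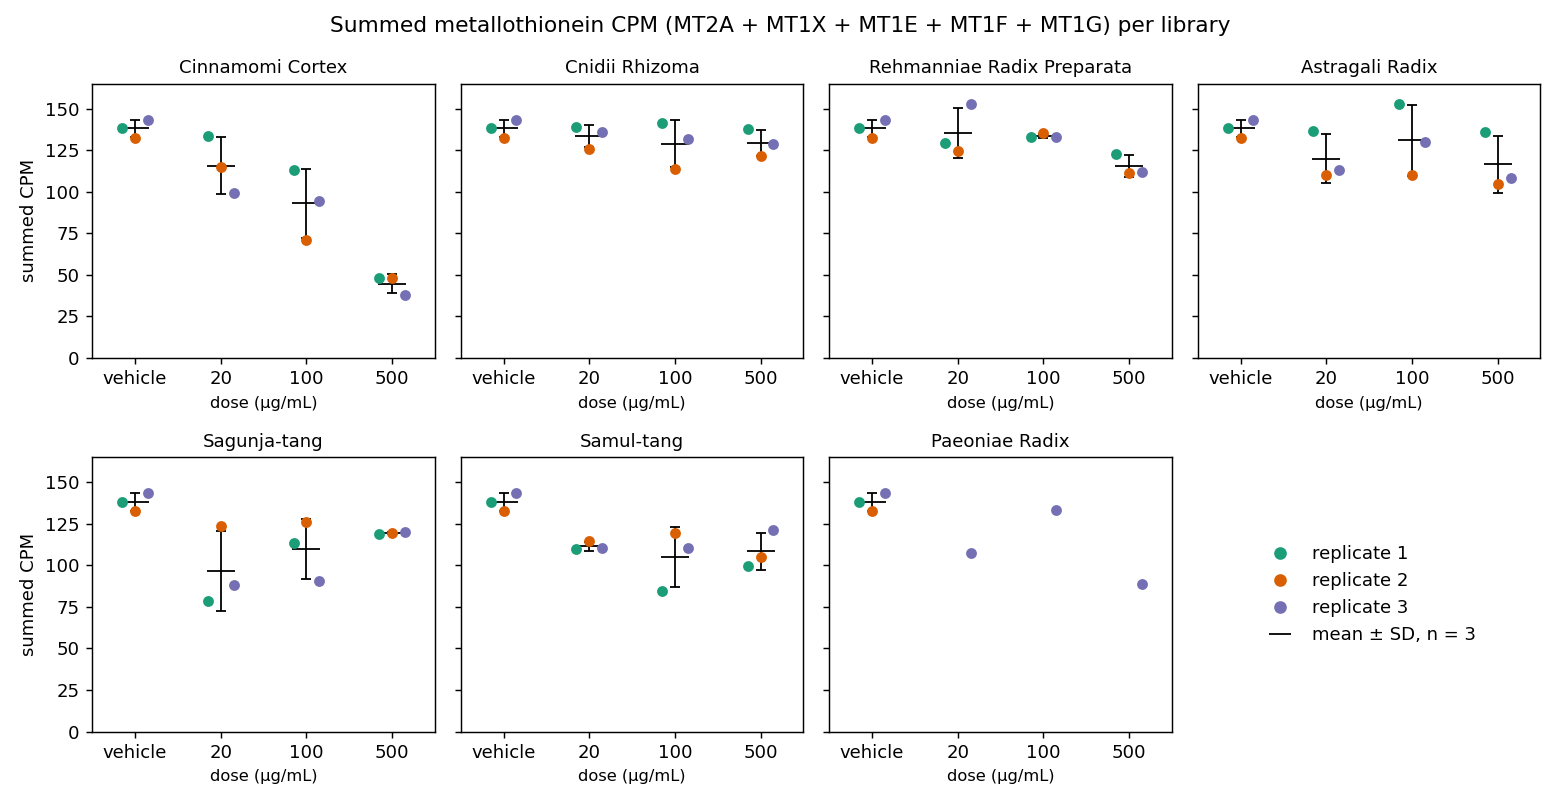
Summed level of MT2A, MT1X, MT1E, MT1F and MT1G in CPM (vertical axis, from 0) by dose in µg/mL (horizontal axis: vehicle, 20, 100, 500), with 1 panel per extract. Points are single libraries and bars mean ± SD of 3 libraries (Paeoniae Radix has 1 library per dose and no bar). The 3 Cinnamomi Cortex libraries at 500, between 37.91 and 48.13 CPM, lie under all others.

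MT1E, the most abundant member, had 31.66, 32.77 and 24.87 CPM with Cinnamomi Cortex at 500, against 91.6, 88.77 and 91.94 CPM in vehicle. Its log2 fold change was -1.60 (SE 0.157). MT2A, the form that most tissues express, had 15.01, 13.92 and 11.97 CPM with Cinnamomi Cortex at 500, against 42.03, 39.65 and 46.97 CPM in vehicle, a log2 fold change of -1.65 (SE 0.188). Neither gene overlapped between the groups, and both were lower by nearly the same factor.

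MT1X had 0.915, 0.6408 and 0.6077 CPM with Cinnamomi Cortex at 500, against 3.408, 3.017 and 3.011 CPM in vehicle. The log2 fold change, -2.14 (SE 0.231), was the furthest from 0 among the members, though its interval meets those of MT2A and MT1E. MT1X shares 19.1% of its 100-base windows with an overlapping gene, which had 0 counts in these libraries; no other member shares an exact window with another gene. MT1F had 0.2287, 0.2136 and 0.1402 CPM with Cinnamomi Cortex at 500, resting on 5, 7 and 3 counts, against 0.871, 0.4674 and 0.5018 CPM in vehicle, on 23, 11 and 10 counts. The groups did not overlap, and the log2 fold change was -1.64 (SE 0.459).

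MT1G had 0.3202, 0.3052 and 0.3272 CPM with Cinnamomi Cortex at 500, against 0.3029, 0.5524 and 0.8531 CPM in vehicle. Vehicle replicate 1 was as low as the treated libraries, and the log2 fold change was -0.80 (SE 0.415). MTF1, the metal-sensing activator, had 43.64, 44.34 and 48.01 CPM with Cinnamomi Cortex at 500, against 44.46, 41.81 and 41.75 CPM in vehicle. The groups overlapped, at a log2 fold change of 0.08 (SE 0.054). By fold change, counted from the most lowered of 16356 genes, MT1X ranked 30, MT2A 49, MT1F 51, MT1E 55, MT1G 383 and MTF1 11239.

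Under the test used throughout, edgeR's quasi-likelihood test with Benjamini-Hochberg adjustment over 16356 genes and a threshold of 0.05, 4 of the 6 members were called lower in this contrast, while 12.7% of all genes were called in either direction and 6.62% lower. Those members were chosen on this contrast, so nothing is read from that count. Cinnamomi Cortex libraries lie in both library sets and the vehicle libraries only in the first. With the set as a term in the fit the log2 fold changes were -1.39 for MT2A, -1.94 for MT1X, -1.395 for MT1E and -1.45 for MT1F. MT1F was no longer called without vehicle replicate 1 or without Cinnamomi Cortex 500 replicate 3. In bulk libraries fewer cells with a transcript and less transcript per cell cannot be told apart.

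**Figure D2:**
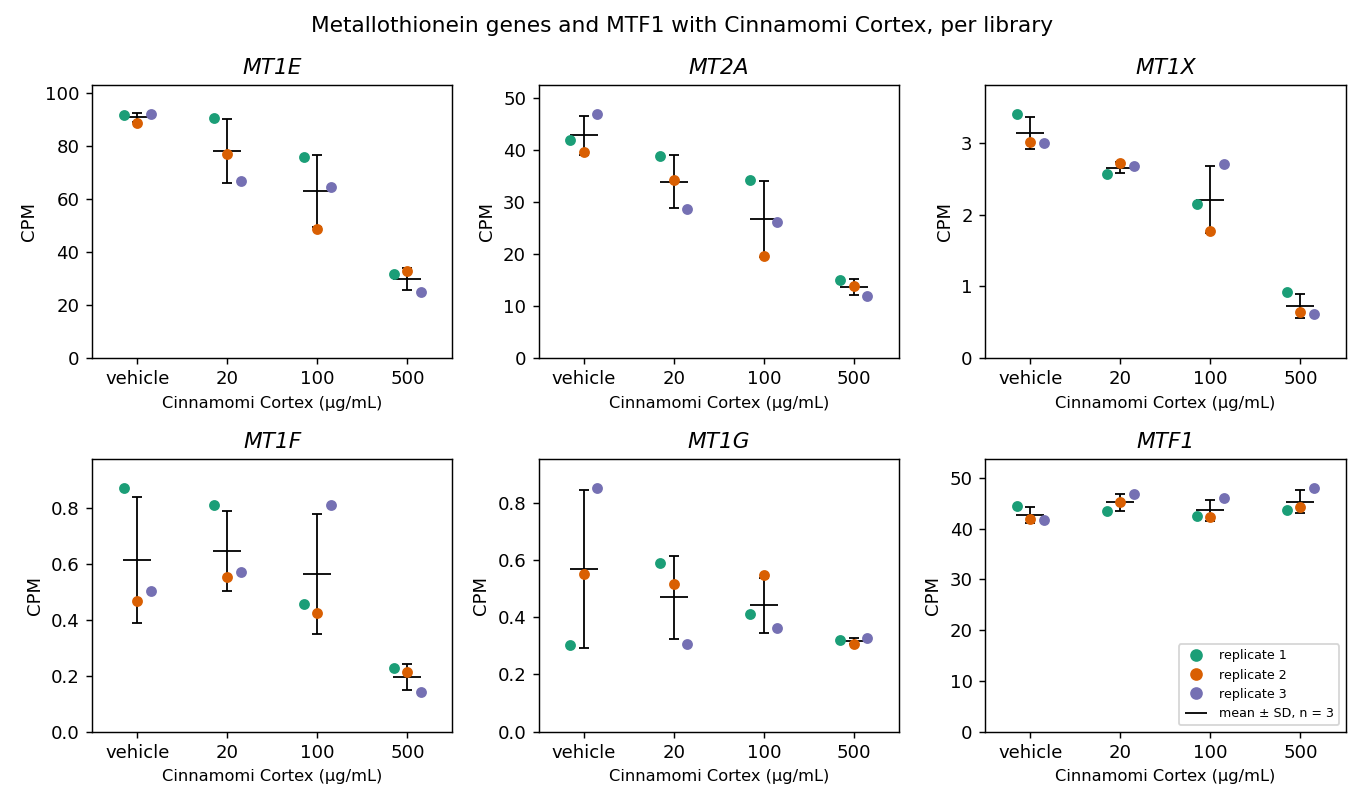
CPM (vertical axes, each from 0) of MT2A, MT1E, MT1X, MT1F, MT1G and MTF1 in single libraries of vehicle and of Cinnamomi Cortex at 20, 100 and 500 µg/mL (horizontal axis), with mean ± SD of 3 libraries. MT2A, MT1E, MT1X and MT1F are lowest at 500, without overlap with vehicle, whereas MTF1 stays between 41.75 and 48.01 CPM.

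The dose series of Cinnamomi Cortex stepped down for the abundant members. The summed level averaged 138 ± 5.412 CPM in vehicle, 115.7 ± 17.21 at 20, 92.88 ± 20.97 at 100 and 44.63 ± 5.818 CPM at 500 µg/mL (SD, n = 3 each). Vehicle and 20 overlapped, as did 20 and 100, while 500 lay apart from 100. Set against vehicle, the sum at 100 did not overlap either. Among the members this held for MT2A, MT1X and MT1E at 100 and for MT2A and MT1X at 20. The share of all genes without overlap was not counted at these doses. MT2A had 38.84, 34.24 and 28.7 CPM at 20 and 34.27, 19.68 and 26.2 CPM at 100. MT1E had 90.45, 76.94 and 66.62 CPM at 20 and 75.72, 48.73 and 64.38 CPM at 100. Replicate 2 was the lowest library at 100 for both genes, and for MT1X as well, at 1.774 CPM against 2.148 and 2.709 CPM in the other libraries.

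Compared without vehicle, Cinnamomi Cortex at 500 against 20 gave log2 fold changes of -1.32 (SE 0.189) for MT2A, -1.38 (SE 0.157) for MT1E, -1.89 (SE 0.234) for MT1X and -1.69 (SE 0.45) for MT1F. MT1G was at -0.59 and MTF1 at 0.01. The same 4 members were called, all lower, beside 10.1% of all genes in either direction and 5.58% lower. The members were chosen on these libraries at 500, so nothing is read from that count either. Replicates of these doses share their sample code numbers, and within replicate 1, 2 and 3 the sum at 500 was 0.3611, 0.4161 and 0.3834 of the sum at 20. Replicate 1 was assigned to the first set and replicates 2 and 3 to the second. On the first principal component, however, replicate 2 at 500 stood with the first set. The ratios use the libraries on which the members were chosen, and the part of the library set in them was not tested.

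Astragali Radix, the root of a legume, carries the same sample code numbers as Cinnamomi Cortex and so allows a comparison of 2 extracts within sets. MT2A had 15.01, 13.92 and 11.97 CPM with Cinnamomi Cortex at 500, against 41.27, 33.86 and 31.42 CPM with Astragali Radix at 500. MT1X had 0.915, 0.6408 and 0.6077 CPM with Cinnamomi Cortex, against 3.809, 2.362 and 2.491 CPM with Astragali Radix. The groups did not overlap for MT2A, MT1E, MT1X or MT1F, beside 23.4% of all genes, with 12.3% of all genes lower without overlap. Nothing is read from this either, since the members were chosen on these Cinnamomi Cortex libraries. Replicate by replicate the sum with Cinnamomi Cortex was 0.3536, 0.4566 and 0.3504 of that with Astragali Radix at 500, and 0.7405, 0.6481 and 0.7261 of it at 100.

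The log2 fold changes against Astragali Radix at 500 were -1.38 for MT2A, -1.36 for MT1E, -2.03 for MT1X, -1.60 for MT1F and -0.66 for MT1G. MTF1 was at 0.12 (SE 0.054), with 43.64, 44.34 and 48.01 CPM for Cinnamomi Cortex and 41.14, 42.94 and 40.68 CPM for Astragali Radix, groups that did not overlap, and was not called. Of the 6 members 4 were called, beside 10.7% of all genes in either direction and 5.8% lower, and nothing is read from that count for the same reason. The call of MT1F was lost without Cinnamomi Cortex 500 replicate 2 or 3 or without Astragali Radix 500 replicate 1. This contrast and those above share the Cinnamomi Cortex libraries at 500.

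The abundant metallothioneins held nearly equal shares of the sum in both groups. MT1E made up 66.98% of the sum with Cinnamomi Cortex at 500 and 65.89% in vehicle, and MT2A made up 30.31% with Cinnamomi Cortex at 500 and 30.96% in vehicle. MT1X made up 1.574% with Cinnamomi Cortex at 500 and 2.297% in vehicle. Over the means of 19 replicated groups MT2A and MT1E correlated at r = 0.985 on the log2 scale, and over the deviations of the 57 libraries from their group means at r = 0.893. MT2A and MT1X correlated at 0.915 over group means and 0.564 within groups, while MT2A and MT1F, whose counts are few, stood at 0.774 and 0.126. MTF1 ran the other way from the sum, with r = -0.575 over group means and -0.557 within groups. Counted from the highest r over group means, MTF1 ranked 11103 of 11793 genes, so many other genes were more opposed to the sum. These are descriptions: the genes share libraries, depth and library set, and the 3 Cinnamomi Cortex groups set much of the range of the means.

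**Figure D3:**
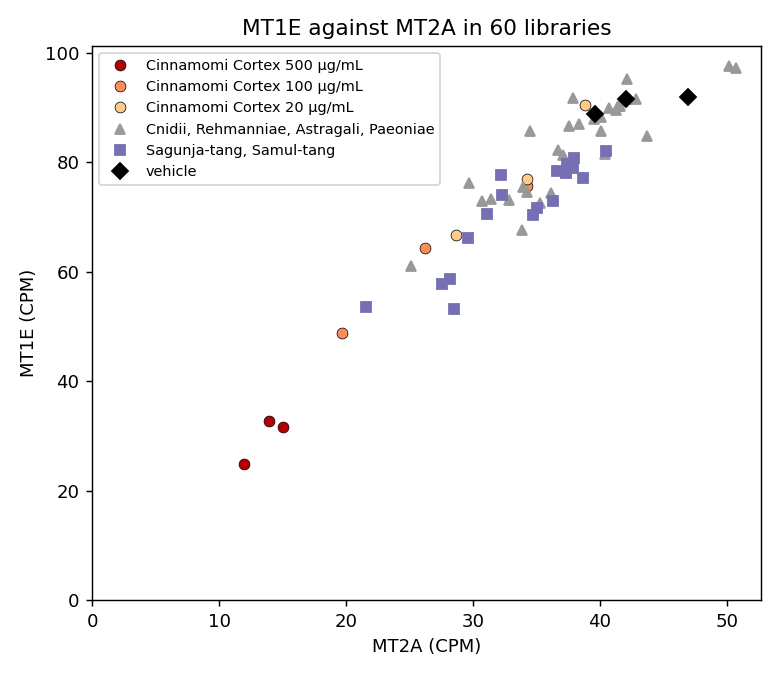
MT1E against MT2A, both in CPM, 1 point for each of the 60 libraries, with Cinnamomi Cortex, vehicle and the other extracts told apart. The libraries line up along 1 band, and the 3 libraries of Cinnamomi Cortex at 500 form its lower end, at 11.97 to 15.01 CPM of MT2A and 24.87 to 32.77 CPM of MT1E.

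No other extract brought the sum to the level seen with Cinnamomi Cortex at 500. Ordered by their mean, the 18 other replicated groups ran from 92.88 ± 20.97 CPM (Cinnamomi Cortex at 100) and 96.83 ± 24.02 CPM (Sagunja-tang at 20) to 135.3 ± 15.11 CPM (Rehmanniae Radix Preparata at 20) and 138 ± 5.412 CPM (vehicle). Of the 18 pairs of neighbours in the order of all 19 groups, 17 overlapped. The pair that did not was Cinnamomi Cortex at 500 and at 100. The members were chosen on the libraries at 500, so nothing is read from that gap. Neighbours by mean lie close together, so this order does not compare each group with vehicle. Set against vehicle, the sum did not overlap for Cinnamomi Cortex at 100 and 500 or Rehmanniae Radix Preparata at 500. The same held for both formulae at 20, 100 and 500. The single Paeoniae Radix libraries had sums of 107.2 CPM at 20, 133.3 CPM at 100 and 89.03 CPM at 500 µg/mL, with no replicate check.

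Against vehicle, the sum at 500 µg/mL was 93.62% of the vehicle level with Cnidii Rhizoma, 83.61% with Rehmanniae Radix Preparata, 84.33% with Astragali Radix, 78.64% with Samul-tang and 86.59% with Sagunja-tang. No member was called in these 5 contrasts, where the share of all genes called in either direction was 1.38% for Cnidii Rhizoma, 0.593% for Rehmanniae Radix Preparata, 3.61% for Astragali Radix, 19.9% for Sagunja-tang and 18.1% for Samul-tang. All 5 share the 3 vehicle libraries with the Cinnamomi Cortex contrast. MT2A, MT1X and MT1E did not overlap with vehicle for Rehmanniae Radix Preparata and both formulae, nor did MT1X for Cnidii Rhizoma, while groups did not overlap for 13.4% of all genes with Rehmanniae Radix Preparata, 39.3% with Sagunja-tang, 36.9% with Samul-tang and 18.9% with Cnidii Rhizoma. With Astragali Radix this held for 0 of the 6 members and 21.6% of all genes.

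For Samul-tang at 500 the log2 fold changes were -0.38 for MT2A (SE 0.17), -0.26 for MT1X and -0.33 for MT1E (SE 0.146). These values moved with the library set. With the set as a term they were 0.00 for MT2A, 0.04 for MT1X and -0.03 for MT1E. For Sagunja-tang at 500 the 3 genes, in the same order, stood at -0.18, -0.25 and -0.22, and at 0.20, 0.04 and 0.08 with the set term. Rehmanniae Radix Preparata, whose libraries all lie in the first set with vehicle, had -0.27, -0.28 and -0.25, and -0.27, -0.28 and -0.25 with the set term as well.

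The sum lay lower in the second set, given here as a description. Over Cnidii Rhizoma, Rehmanniae Radix Preparata, Astragali Radix and the formulae it ran between 111.2 and 152.6 CPM in the 21 libraries of the first set (median 132.7) and between 78.29 and 130.1 CPM in the 24 of the second (median 110.4). Within Astragali Radix alone, the replicate 1 libraries of the first set had 136.1 to 152.6 CPM and the replicates of the second set 104.8 to 130.1 CPM. Set and extract cannot be told apart for the formulae, which lie in the second set only.

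The comparisons of 500 with 20 µg/mL within Cnidii Rhizoma, Rehmanniae Radix Preparata, Astragali Radix, Sagunja-tang and Samul-tang, and that of Sagunja-tang with Samul-tang at 500, use neither vehicle nor Cinnamomi Cortex and were tested. None of the 36 tests of a member passed, with a smallest adjusted p of 0.47 under edgeR's quasi-likelihood test, 1 at an unadjusted p under 0.05, and none called by DESeq2, which gave MT1F and MT1G, and in part MT1X, no adjusted p. Few genes of any kind were called there, 0.397% for Cnidii Rhizoma, 0.171% for Rehmanniae Radix Preparata, 0.0795% for Astragali Radix, 0.00611% for Sagunja-tang, 0.141% for Samul-tang and 0.318% between the formulae.

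The test at an unadjusted p under 0.05 was MT2A with Sagunja-tang. It had 36.62, 38.71 and 37.86 CPM at 500, against 21.6, 37.95 and 27.56 CPM at 20. The groups overlapped, since replicate 2 at 20 was as high as those at 500, and the log2 fold change was 0.37 (SE 0.172, edgeR adjusted p = 0.47). MT1E ran alike, with 78.31, 77.06 and 78.9 CPM at 500 and 53.57, 80.69 and 57.69 CPM at 20 (log2 fold change 0.29, SE 0.147, edgeR adjusted p = 0.54).

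MT1E with Rehmanniae Radix Preparata was the 1 test of 36 whose groups did not overlap, beside 13.1% of all genes in that comparison and 9.52% to 17.6% in the others. It had 82.21, 72.58 and 74.55 CPM at 500, against 86.58, 85.69 and 97.18 CPM at 20, a log2 fold change of -0.23 (SE 0.146, edgeR adjusted p = 0.77). Over the 6 comparisons the 95% intervals of MT2A and MT1E stayed between -0.55 and 0.72 on the log2 scale, and those of MT1X between -0.71 and 0.38, which excludes changes of the size of those genes with Cinnamomi Cortex at 500 against 20. The intervals of MTF1 stayed between -0.16 and 0.17. For MT1F and MT1G the intervals reached from -1.45 to 1.08, too wide to set such a bound.

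**Figure D4:**
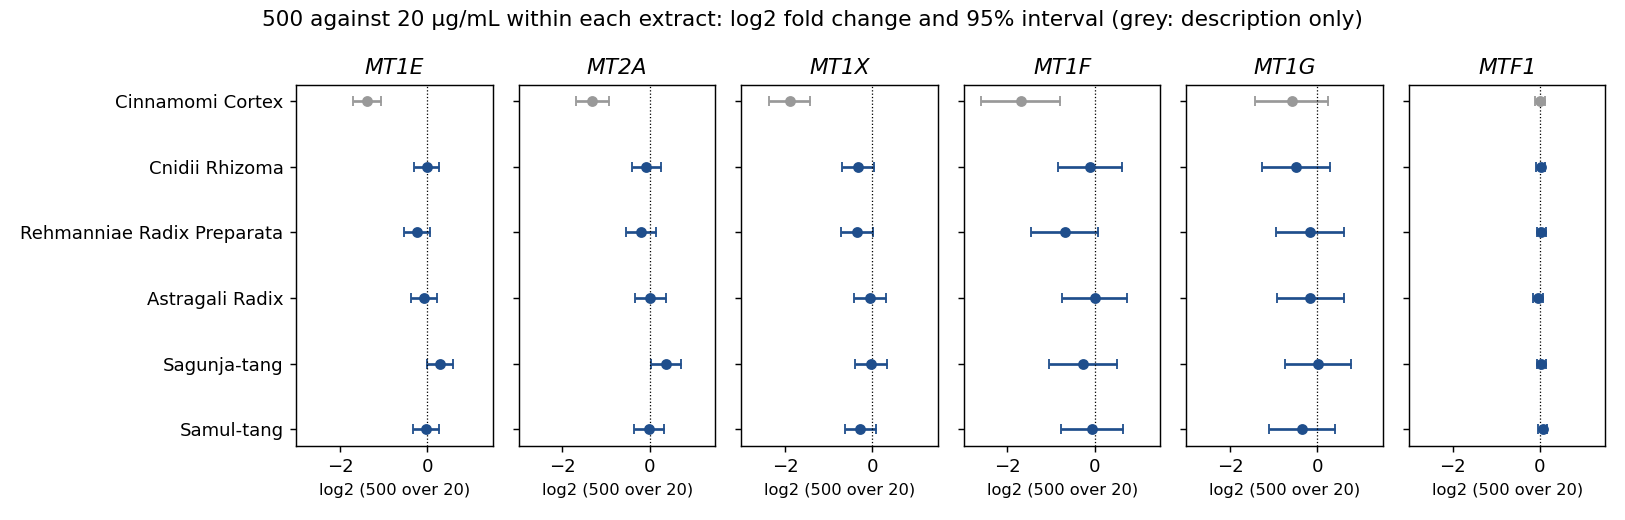
Log2 fold change of 500 against 20 µg/mL (horizontal position, with 95% intervals from the edgeR fit) for each member and 6 extracts. Grey marks Cinnamomi Cortex, given as a description because the members were chosen on its libraries; for MT2A, MT1E and MT1X its intervals lie wholly under those of the other extracts, which all include 0 except MT2A with Sagunja-tang at 0.37.

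Whether the dose effects differ between extracts was tested for the pairs that share a library set. For Sagunja-tang minus Samul-tang the difference was 0.39 (SE 0.242) for MT2A and 0.32 for MT1E on the log2 scale, and for Cnidii Rhizoma minus Rehmanniae Radix Preparata all members likewise missed the threshold. Every member stood at an edgeR adjusted p of 1 in both, with 0 members at an unadjusted p under 0.05. Of all genes 0 and 2 were called in these tests of a difference, with 422 and 526 at an unadjusted p under 0.05; DESeq2 called 2 for the first.

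Of the 16 further metallothionein genes and pseudogenes, 1 passed the filter on low counts. MT1A, a zinc-responsive form of the same cluster, had 46 counts over the 3 Cinnamomi Cortex libraries at 500 and 64 over the 3 vehicle libraries, a log2 fold change of -0.60 (SE 0.309) that was not called. MT3, best known from brain, had 193 counts over all 60 libraries, and MT1L 26. MT1H, whose promoter is shown above, had 3 counts over all 60 libraries, MT1M 4, and MT1B and MT4 1 each.

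Among genes of zinc transport, the exporter gene SLC30A1, a further target of MTF1, was lower and the importer gene SLC39A10 was higher with Cinnamomi Cortex at 500. SLC30A1 had 28.73, 29.45 and 27.72 CPM with Cinnamomi Cortex at 500, against 43.51, 41.56 and 37.39 CPM in vehicle (log2 fold change -0.51, SE 0.076). SLC39A10, which MTF1 is known to repress in mouse cells, had 83.22, 76.04 and 77.46 CPM with Cinnamomi Cortex at 500, against 40.48, 40.33 and 42.71 CPM in vehicle (log2 fold change 0.94, SE 0.05). Neither gene overlapped between the groups. With the library set as a term the values were -0.59 for SLC30A1 and 0.97 for SLC39A10. The RefSeq window of SLC30A1 holds 1 metal response core and that of SLC39A10 holds 0.

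**Figure D5:**
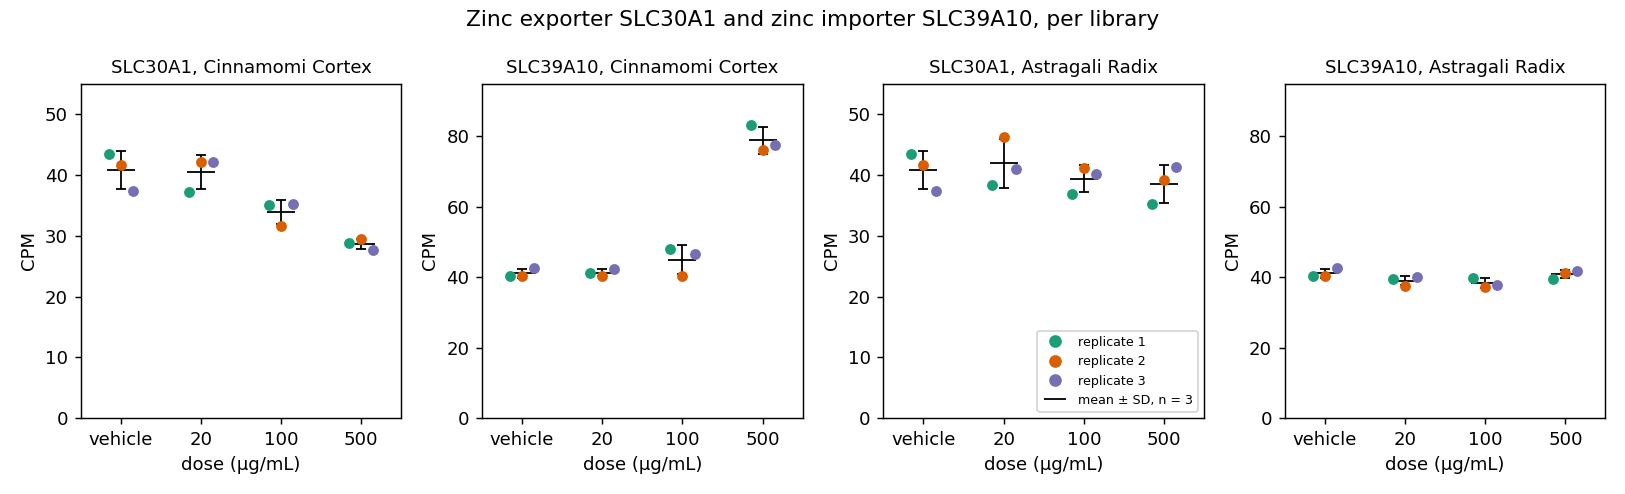
CPM of SLC30A1 and SLC39A10 (vertical axes, from 0) in single libraries of vehicle and of Cinnamomi Cortex and Astragali Radix at 20, 100 and 500 µg/mL, with mean ± SD of 3 libraries. At 500, Cinnamomi Cortex stands at 28.63 CPM for SLC30A1 and 78.91 CPM for SLC39A10 on average, and Astragali Radix at 38.55 and 40.85 CPM.

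Of 6 exporter genes that could be tested, 0 were called higher and 1 lower with Cinnamomi Cortex at 500 against vehicle, with a median log2 fold change of -0.02, against 0.00 over all genes. Of 12 importer genes 4 were called higher and 0 lower, with a median of 0.13; beside SLC39A10 they were SLC39A3 at 0.27, SLC39A1 at 0.18 and SLC39A6 at 0.16, each of which lost its call on leaving out vehicle replicate 3. In that contrast 6.09% of all genes were called higher. SLC39A1 was also called higher than vehicle with Sagunja-tang (0.22) and Samul-tang (0.15) at 500. With Cinnamomi Cortex at 500 against 20, SLC39A1 (0.04) and SLC39A3 (0.10) were not called, while SLC39A6 (0.17) and SLC39A10 (0.93) were. In the 5 tested dose comparisons of the other extracts, no exporter and no importer gene was called by edgeR, with 0 of 30 and 6 of 60 tests at an unadjusted p under 0.05.

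Of 14 genes of copper handling, 1 was called higher (SLC31A1, the copper importer, log2 fold change 0.16) and 1 lower (STEAP4, a metalloreductase, -0.46) with Cinnamomi Cortex at 500 against vehicle. Glucocorticoid receptor targets had 5 of 9 called higher and 0 lower, with a median of 0.23, beside 6.09% of all genes called higher. FKBP5 at -0.05, TSC22D3 at -0.13, HSD11B2 at -0.03 and CEBPD at 0.19 were not called. KLF9, a transcription factor, had a mean of 5.129 CPM with Cinnamomi Cortex at 500 and 2.923 CPM in vehicle (0.83), and DUSP1, a phosphatase, was at 0.43. DUSP1 and SLC31A1 were no longer called with the set term, or without vehicle replicate 2 or Cinnamomi Cortex 500 replicate 3. With Cinnamomi Cortex at 500 against 20, DUSP1 (0.37) and PER1 (-0.08), both among the 5, were not called. The others, KLF9 (0.51), ERRFI1 (0.28) and SGK1 (0.25), were called there. KLF9 was also called higher than vehicle with Samul-tang at 500 (0.44), and PER1 with Sagunja-tang at 500 (0.30). NR3C1, the gene of the receptor itself, had 18 counts over all 60 libraries.

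All 10 metal and oxidative stress genes that share inducers with the metallothioneins were called higher with Cinnamomi Cortex at 500 against vehicle. Their median log2 fold change was 0.39, and 6.09% of all genes were called higher in that contrast. The list was chosen with earlier results of these data known, so the count is a description. Without vehicle replicate 3, 1 of the genes, HSPH1, was not called. Against the same vehicle libraries, 8 of the 10 were called higher with Samul-tang at 500, where 10.1% of all genes were. With Sagunja-tang 5 were (11.6%), with Cnidii Rhizoma 5 (0.691%) and with Rehmanniae Radix Preparata 2 (0.355%). With Astragali Radix 0 were (2.16%), and DESeq2 called 0. With the set term these counts were 6, 3, 7, 2 and 0 in the same order, from Samul-tang to Astragali Radix. Without that term, 2 genes with Astragali Radix had an unadjusted edgeR p under 0.05, DNAJB1 (0.12) and SLC7A11, which was lower (-0.21). The count for Samul-tang was 4 without its replicate 1 at 500 or without vehicle replicate 2, and 5 without vehicle replicate 3. That for Sagunja-tang was 3 without its replicate 1 and 2 without vehicle replicate 3. That for Cnidii Rhizoma was 1 without its replicate 1, 3 without its replicate 3 or vehicle replicate 2, and 2 without vehicle replicate 3. HMOX1, heme oxygenase, had a mean of 19.66 CPM with Cinnamomi Cortex and 10.7 CPM in vehicle (log2 fold change 0.88), and GCLM, of glutathione synthesis, had 89.88 CPM with Cinnamomi Cortex and 62.18 CPM in vehicle (0.53). HSPA1A at 0.40 and HSPA1B at 0.43, heat shock chaperones, are near-identical copies whose reads may be shared out between them. In the tested dose comparisons, 6 of these 10 genes rose with Cnidii Rhizoma, where 0.226% of all genes were called higher, and 2 each with Rehmanniae Radix Preparata and Samul-tang, where 0.0978% and 0.11% were. None was called with Astragali Radix or Sagunja-tang by edgeR, with 1 and 4 at an unadjusted p under 0.05. HMOX1 rose with Cnidii Rhizoma at 500 against 20 (log2 fold change 0.35, SE 0.083) and with Rehmanniae Radix Preparata (0.45, SE 0.084), where MT2A, MT1E and MT1X did not pass. Without Cnidii Rhizoma 500 replicate 1, 5 of the 6 calls with Cnidii Rhizoma were lost, HMOX1 among them, and without any other single library of that comparison at most 4. Without Rehmanniae Radix Preparata 500 replicate 1 both calls with that extract were lost.

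Over the means of the 19 replicated groups, the genes whose log2 level ran most like the summed metallothioneins, among 11793 genes, were ANKDD1A (r = 0.956), the mitotic kinesin gene CENPE (0.945), the long noncoding RNA XIST (0.936), ANKRD12 (0.925) and the centrosomal gene CEP290 (0.924). Among the most opposed were ACLY (-0.953), which makes cytosolic acetyl-CoA, LSS (-0.938) of cholesterol synthesis, the lysosomal protease gene CTSD (-0.931) and the proteoglycan gene GPC1 (-0.925). Without the 3 Cinnamomi Cortex groups, the r values of these named genes lay between 0.38 and 0.742 and between -0.791 and -0.579, over 16 groups. Within groups they lay between 0.0888 and 0.53 and between -0.65 and -0.199. ANKDD1A had 0.8747 ± 0.2331 CPM with Cinnamomi Cortex at 500 and 4.627 ± 0.2911 CPM in vehicle, and LSS had 183.2 ± 18.53 CPM with Cinnamomi Cortex at 500 and 104.8 ± 4.12 CPM in vehicle (SD, n = 3 each).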

How the data were processed

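RSEM 1.3.3, STAR 2.7.3a, Trim Galore 0.6.5, FastQC 0.11.9 and GRCh38 are named in the submitters' processing notes, without their roles. The authors deposited expected counts per gene, of which 8.8% were not whole, and all were rounded here. Which annotation was used, and whether counting used strand, is not given in the sources used here. Such counts share out reads that fit more than 1 gene, which leaves near-identical genes uncertain against each other; the values of all 6 members were whole. The table's other 213 columns of values were not used. Gene models are from GENCODE release 29 and promoters from RefSeq, whose table matched MT2A, MT1X and MTF1 among the members; MT1E, MT1F and MT1G had no entry.

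In R 4.3.3, edgeR 4.0.16 fitted 57 libraries in 19 groups (TMM factors, filterByExpr with a minimum count of 10, 16356 genes, quasi-likelihood test), checked on simulated data. The simulation gave every gene the same biological coefficient of variation, 0.057, and no library set. In the data that coefficient ran from 0.11 (MT1X) to 0.2051 (MT1F) among the metallothioneins. The check therefore does not show how the test behaves for them. Paeoniae Radix, with 1 library per dose, entered no fit. DESeq2 1.42.0, no filter, other scaling, a replicate block, a library set term and leaving out single libraries were tried as alternatives. Members and gene lists were chosen with earlier results of these data known. Named from each list were at most 4 called genes with the largest fold change with Cinnamomi Cortex, any genes said not to be called, and the 5 genes most and least like the summed level with a mean log2 CPM of at least 1; some results under this rule are not reported here. The count of the receptor gene NR3C1 is outside that rule and was chosen after its value was seen. Since no label speaks of separate cultures, the p-values measure only how libraries vary, which may be technical. Same-numbered libraries were checked for pairing by the correlation of their deviations from the group means, which exceeded 0.1 in every pair for Astragali Radix 500 against 20 alone (0.47, 0.12 and 0.27).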

Additional observations from a re-analysis of the deposited data

How the results depend on the processing

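In the 3 contrasts of Cinnamomi Cortex at 500, on whose libraries the members were chosen, MT2A, MT1X and MT1E were called lower under every alternative tried; this describes the fits and is no support for the difference. Under DESeq2 3 members were called there, since MT1F and MT1G had no adjusted p. Leaving out single libraries gave 3 to 4 members called against vehicle and against Astragali Radix and 4 against 20. MT1F is limited by 3 to 30 counts per library. Where other values moved, the cause was not tested.

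Without the filter, members called against vehicle were 2 for Rehmanniae Radix Preparata, 2 for Astragali Radix and 2 for Samul-tang (MT2A and MT1E each) and 1 for Sagunja-tang (MT1E), all lower. There, MT1E was called lower at 500 against 20 in Rehmanniae Radix Preparata (1 member, log2 -0.23, edgeR adjusted p = 0.024), 2 members higher in Sagunja-tang (MT2A at 0.37, adjusted p = 4.8e-05, and MT1E at 0.28, adjusted p = 0.0011), and 1 in the difference of the formulae's dose effects (MT2A at 0.38, adjusted p = 0.037). Under the other alternatives the adjusted p ran from 0.44 to 0.93 for MT1E in Rehmanniae Radix Preparata, from 0.12 to 0.95 for MT2A and from 0.15 to 0.96 for MT1E in Sagunja-tang, and was 1 for the difference. Without the filter the genes called against vehicle were 366 for Cnidii Rhizoma (225 with it), 265 for Rehmanniae Radix Preparata (97) and 1223 for Astragali Radix (591). At 500 against 20 they were 150 (65), 204 (28) and 72 (13) for these herbs, 213 (1) for Sagunja-tang and 138 (23) for Samul-tang. Between the formulae at 500 they were 117 (52), and for the differences of dose effects 70 (0, formulae) and 96 (2, herbs).

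With a replicate block over the replicate numbers, 387, 176 and 936 genes were called against vehicle for Cnidii Rhizoma, for Rehmanniae Radix Preparata and for Astragali Radix, and 119, 59 and 20 at 500 against 20, with 27 for Sagunja-tang and 49 for Samul-tang. With the replicate block within sample codes the dose counts were 2624 for Cinnamomi Cortex, 177 for Cnidii Rhizoma, 100 for Rehmanniae Radix Preparata, 38 for Astragali Radix, 91 for Sagunja-tang and 84 for Samul-tang; Cinnamomi Cortex against Astragali Radix gave 2665, and the differences of dose effects 1 (formulae) and 5 (herbs). No call of a member changed under either block. With the library set term the counts against vehicle were 412 for Cnidii Rhizoma, 202 for Rehmanniae Radix Preparata, 124 for Astragali Radix, 341 for Sagunja-tang and 191 for Samul-tang, and at 500 against 20 they were 102, 59, 40 and 48 for Cnidii Rhizoma, Rehmanniae Radix Preparata, Sagunja-tang and Samul-tang. DESeq2 called 54, 42 and 41 genes for the doses of Rehmanniae Radix Preparata, Sagunja-tang and Samul-tang, and 2 for the formulae's difference. With plain library totals the sum for Sagunja-tang at 500 against vehicle was -0.15 on the log2 scale (-0.21 with TMM).

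Leaving out single libraries, genes called against vehicle ranged from 1111 to 2090 for Cinnamomi Cortex, 81 to 159 for Cnidii Rhizoma, 27 to 84 for Rehmanniae Radix Preparata, 110 to 1201 for Astragali Radix, 1306 to 3207 for Sagunja-tang and 1037 to 2964 for Samul-tang. At 500 against 20 they ranged from 942 to 1809, 30 to 57, 13 to 32, 1 to 3, 0 to 57 and 14 to 22 in the same order of extracts. They were 1033 to 1914 between Cinnamomi Cortex and Astragali Radix, 39 to 48 between the formulae, 0 for the formulae's difference and 1 to 3 for the herbs'. The log2 ratio of the sum ranged from -1.69 to -1.52 for Cinnamomi Cortex against vehicle, -1.48 to -1.26 against 20 and -1.45 to -1.25 against Astragali Radix. Against vehicle it was -0.14 to -0.05 for Cnidii Rhizoma, -0.31 to -0.23 for Rehmanniae Radix Preparata, -0.37 to -0.18 for Astragali Radix, -0.24 to -0.18 for Sagunja-tang and -0.43 to -0.29 for Samul-tang. At 500 against 20 it was -0.09 to 0.00, -0.29 to -0.13, -0.17 to 0.06, 0.17 to 0.52 and -0.12 to 0.02, and between the formulae 0.08 to 0.22.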
